A study of Mus musculus with 67 samples.

Results

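The 8 immunoglobulin heavy chain constant genes of the mouse (Ighm, Ighd, Ighg1, Ighg2b, Ighg2c, Ighg3, Igha and Ighe), the kappa light chain constant gene Igkc and the J chain gene Jchain were followed across B cells at rest, after stimulation through the antigen receptor and after engagement of the inhibitory receptor Btla. These 10 genes were taken by name, out of 35498 genes in the B cell tables, and their 19 transcripts were summed to genes in each library. The series profiled 2 lymphocyte populations, B cells and CD4+ T cells, of C57BL/6 mice of both sexes that were 8 to 12 weeks old, and the 30 B cell libraries of 60 in all are the subject here. B cells were enriched by negative selection from spleen and from inguinal and brachial lymph nodes. No sorting into subsets is described, and the sources do not say which B cell subsets the enrichment kept. Donors were either naive, without immunization, or carried experimental autoimmune encephalomyelitis (EAE), a disease of the central nervous system that is induced by immunization with a myelin peptide.

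Each state held 5 arms of 3 libraries, numbered 1 to 3. One arm was unstimulated. The other 4 arms received latex beads coated with anti-IgM/IgG for 18 h, coupled with control Ig or with anti-Btla (clone 6A6), each with or without soluble interferon beta (IFNb). Anti-Btla was therefore always compared with control Ig on the same kind of bead, and both carried the anti-IgM/IgG stimulus. No time in culture is given for the unstimulated arm, so the stimulus, the beads and 18 h of culture cannot be told apart in the comparison of control Ig with unstimulated libraries, which is called stimulation here. No transgene or deletion is named for any group. The labels do not say whether the numbered libraries came from separate animals, so p-values measure the spread between these libraries only.

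A B cell displays its heavy chain, paired with a kappa or lambda light chain, as a membrane receptor, and releases the same protein as antibody once the transcript is processed to its secreted form. Ighm (IgM) and Ighd (IgD) are made from one long primary transcript by alternative splicing, so a naive B cell carries both. Class switch recombination replaces them by an IgG, IgA or IgE constant gene, and the J chain links secreted IgM and IgA into polymers.

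The choice between receptor and antibody is written at the 3′ end of each heavy chain coding sequence, and the ends are shown because they mark the difference between the forms whose shares are given below. The shares rest on all bases found in one form only, most of which lie outside the ends shown for the membrane transcripts (1098 such bases in Ighd and 1568 in Igha). Lower-case letters are the last 24 coding bases common to both transcripts of a gene, and capitals are the coding bases, without the stop codon, found in that form only. The sequences are from the GENCODE M21 transcripts of GRCm38, read on the minus strand of chromosome 12. The capitals of IgM lie at chr12:113420870-113420928 (secreted) and within chr12:113418829-113419068 (membrane), those of IgD at chr12:113409581-113409645 and within chr12:113407538-113407921, and those of IgA at chr12:113258771-113258829 and chr12:113256204-113256397.
Ighm secreted: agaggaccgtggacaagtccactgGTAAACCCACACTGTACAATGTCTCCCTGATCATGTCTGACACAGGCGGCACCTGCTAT
Ighm membrane: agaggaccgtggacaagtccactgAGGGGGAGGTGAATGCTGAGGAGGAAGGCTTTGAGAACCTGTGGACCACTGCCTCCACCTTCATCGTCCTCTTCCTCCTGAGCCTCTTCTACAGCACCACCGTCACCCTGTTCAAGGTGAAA
Ighd secreted: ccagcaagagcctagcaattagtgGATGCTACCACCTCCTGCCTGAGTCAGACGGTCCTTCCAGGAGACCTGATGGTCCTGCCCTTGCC
Ighd membrane: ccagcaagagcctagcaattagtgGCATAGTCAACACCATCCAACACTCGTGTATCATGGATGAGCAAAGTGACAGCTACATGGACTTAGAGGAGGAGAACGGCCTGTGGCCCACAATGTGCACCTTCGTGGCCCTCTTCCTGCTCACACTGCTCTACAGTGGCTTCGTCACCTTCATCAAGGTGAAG
Igha secreted: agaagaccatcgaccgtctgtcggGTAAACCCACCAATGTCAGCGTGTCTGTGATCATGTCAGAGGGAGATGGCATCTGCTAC
Igha membrane: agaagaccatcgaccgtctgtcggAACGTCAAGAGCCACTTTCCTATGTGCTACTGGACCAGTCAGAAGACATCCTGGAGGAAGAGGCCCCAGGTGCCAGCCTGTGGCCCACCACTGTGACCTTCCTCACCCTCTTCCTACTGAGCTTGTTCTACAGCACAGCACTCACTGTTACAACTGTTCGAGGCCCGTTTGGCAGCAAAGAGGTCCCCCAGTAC
The secreted ends of Ighm and Igha have 59 such bases each and that of Ighd has 65, whereas the membrane ends have 122, 194 and 164. The whole heavy chain locus lies on one strand, from Igha (chr12:113254830-113260236) to Ighm (chr12:113418558-113422730), with Igkc at chr6:70726435-70726966 and Jchain at chr5:88519809-88527891, and none of the 10 genes overlapped another annotated gene.

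The B cell libraries held 6.69 to 62.1 M estimated counts (M, 1000000 counts; median 33.0 M), and the shallowest group was EAE with anti-Btla at 6.69 to 29.5 M. Markers of B cells (11 genes such as Ms4a1 and Cd22) summed to 4215 to 7357 CPM (counts per 1000000 counts of the library), and the 13 T cell markers to 8.46 to 18.3 CPM. The 8 neutrophil markers summed to 0.247 to 1.14 CPM in naive and 2.45 to 7.36 CPM in EAE libraries without overlap, although Elane and Ly6g stayed under 0.1 CPM in every library. Transcripts of the Y-linked genes Ddx3y and Eif2s3y, which were chosen after their values had been seen, were near background in all 5 arms of naive number 3 (Ddx3y 0.828 to 1.29 CPM) and high in naive numbers 1 and 2 (211 to 241 CPM) and in EAE libraries (160 to 237 CPM). The sex of the donors was thus mixed among the naive numbers, and the part of sex or of neutrophil RNA in the differences between EAE and naive libraries was not tested. In bulk RNA, fewer cells of one type and less RNA per cell cannot be told apart.

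TPM, a scale on which transcripts are corrected for their length and sum to 1000000 in a library, was used to set the genes against each other. Igkc, Ighm and Ighd formed one tier and all other members a second tier, lower by orders of magnitude. In unstimulated naive B cells Igkc stood at 4912 ± 502 TPM (SD, n = 3), Ighm at 4137 ± 326 TPM and Ighd at 2582 ± 226 TPM, with no overlap between neighbours. Jchain followed at 24.2 ± 1.33 TPM and Ighg2b at 16.7 ± 2.14 TPM. The ranges of Ighg3 (6.77 ± 0.978 TPM), Igha (6.29 ± 3.90 TPM) and Ighg2c (5.12 ± 3.77 TPM) overlapped, so these 3 could not be ranked.

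Ighg1 had the lowest mean of the genes named so far, at 0.635 ± 0.369 TPM, although its range overlapped with that of Ighg2c, and Ighe, the constant gene of IgE, was hardly detected, with 0 to 9 estimated counts in any of the 30 libraries. In unstimulated EAE B cells the upper tier kept its order, but Igha ranked next at 62.1 ± 40.1 TPM, overlapping with Jchain (29.8 ± 14.1 TPM). Igkc and Ighm overlapped only in the 2 anti-Btla arms of naive cells, and in all 10 groups Ighd was below Ighm with no overlap between their TPM ranges.

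**Figure D1:**
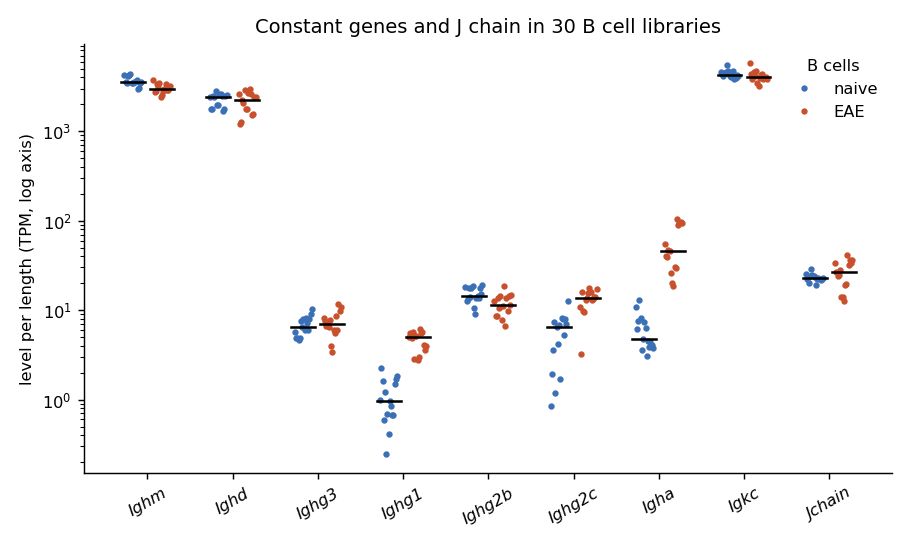
Levels per length (TPM, log axis) of 9 genes in the 15 naive (blue) and 15 EAE (orange) B cell libraries, 1 point per library, with a black line at the median. Igkc, Ighm and Ighd stand far above the rest, and Igha and Ighg1 lie higher in EAE than in naive libraries; Ighe, at 0 to 9 counts, is not drawn.

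The first comparisons set the constant genes in control Ig against unstimulated libraries (stimulation, with beads and culture included) and asked how they respond to Btla (anti-Btla against control Ig). Ighd, the constant gene of IgD, was the only member called in all 4 of these comparisons and in both repeats of the anti-Btla comparison in the presence of IFNb. It fell upon stimulation and was higher with anti-Btla, in naive and in EAE cells. In naive numbers 1, 2 and 3, Ighd stood at 2887, 3463 and 3163 CPM unstimulated, at 2439, 2753 and 2362 CPM with control Ig, and at 3335, 3528 and 3418 CPM with anti-Btla. The control Ig libraries were all below the other 6, while the unstimulated and anti-Btla ranges overlapped.

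In the EAE numbers, Ighd stood at 3497, 3935 and 3166 CPM unstimulated, at 1941, 2551 and 2160 CPM with control Ig, and at 3420, 3776 and 3285 CPM with anti-Btla. Here too every control Ig library lay below every library of both other arms. The summed B cell markers moved the same way, from 7052 to 7192 CPM unstimulated to 4629 to 4943 CPM with control Ig and 5863 to 6538 CPM with anti-Btla in naive cells, and from 7014 to 7357 to 4215 to 4797 and 6171 to 6416 CPM in EAE cells. Of these 11 genes 10 fell and 0 rose with stimulation in each state (median -0.42 and -0.53 log2), and 8 rose and 0 fell with anti-Btla in each (median 0.23 and 0.34 log2). Their part in the changes of Ighd was not tested. The mean of Ighd in EAE cells fell from 3533 ± 386 to 2217 ± 309 CPM with stimulation (SD, n = 3) and was 3494 ± 254 CPM with anti-Btla.

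In the edgeR fit across all genes, Ighd changed with stimulation by -0.22 ± 0.044 log2 (SE, adjusted p = 0.000695) in naive and by -0.54 ± 0.060 log2 (edgeR adjusted p = 7.26e-06) in EAE cells, lower in 3 of 3 same-numbered pairs each. With anti-Btla it changed by 0.36 ± 0.044 log2 in naive (edgeR adjusted p = 1.48e-05) and by 0.58 ± 0.060 log2 in EAE cells (edgeR adjusted p = 9.31e-06), higher in 3 of 3 pairs each. With IFNb present, the anti-Btla difference of Ighd was 0.42 ± 0.044 log2 in naive (3464 ± 261 against 2491 ± 186 CPM, edgeR adjusted p = 3.45e-06) and 0.60 ± 0.060 log2 in EAE cells (3397 ± 297 against 2149 ± 311 CPM, edgeR adjusted p = 5.78e-06). These fits scale the libraries by TMM, which placed the activation changes 0.108 log2 (naive) and 0.132 log2 (EAE) above those from plain CPM and the anti-Btla changes 0.0898 and 0.0821 log2 below them.

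The stimulation change of Ighd differed by -0.30 ± 0.068 log2 (EAE minus naive), which did not pass correction (edgeR unadjusted p = 0.000237, adjusted p = 0.172). With DESeq2 it passed (adjusted p = 0.0259). Over 5 alternatives the adjusted p ranged from 0.0259 to 1.00. Of the 9 members 0 were called by edgeR here (1 at an unadjusted p below 0.05), where 0.0865% of all genes were. The difference between the anti-Btla effects on Ighd was 0.19 ± 0.068 log2 (edgeR adjusted p = 1), where edgeR called 0 members and 0.00% of all genes, and 2 members, Ighd and Ighg2b, had an unadjusted p below 0.05.

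**Figure D2:**
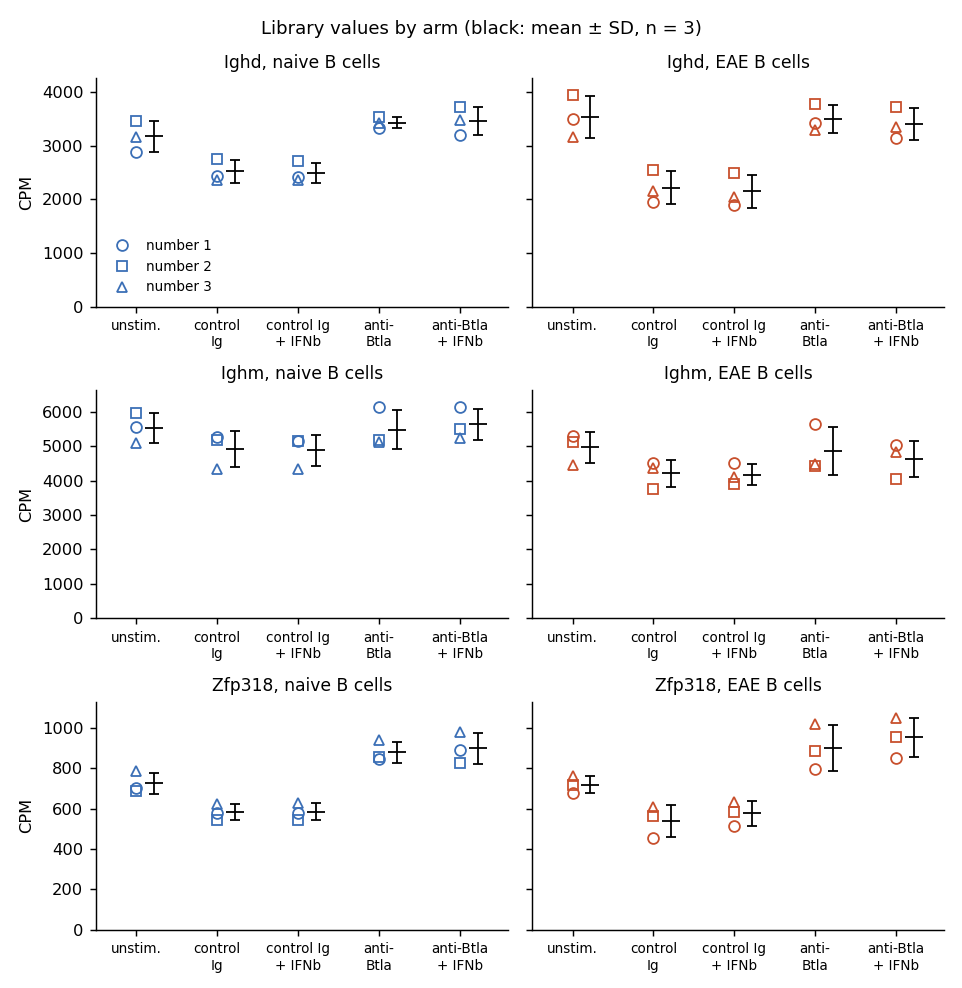
CPM of Ighd, Ighm and Zfp318 in each library by arm, in naive (left) and EAE (right) B cells; symbols mark the library number and black bars the mean ± SD of 3. Ighd and Zfp318 are lowest in both control Ig arms, with anti-Btla means near (Ighd) or above (Zfp318) the unstimulated ones, whereas the arms of Ighm overlap in most comparisons.

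Ighm, which shares its primary transcript with Ighd, moved less. Its unstimulated, control Ig and anti-Btla means were 5530 ± 441, 4928 ± 519 and 5484 ± 572 CPM in naive cells and 4964 ± 440, 4209 ± 404 and 4856 ± 693 CPM in EAE cells (SD, n = 3 each), with overlapping ranges. The fitted changes of Ighm were -0.06 ± 0.056 and -0.11 ± 0.070 log2 with stimulation and 0.07 ± 0.056 and 0.12 ± 0.070 log2 with anti-Btla, none of which was called by edgeR. Without number 1 of the unstimulated naive libraries the stimulation change of Ighm was -0.16 log2 and was called (edgeR adjusted p = 0.0330).

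The ratio of Ighd to Ighm, taken per length within each library, went from 0.625 ± 0.048 to 0.546 ± 0.043 and with anti-Btla to 0.682 ± 0.077 in naive cells. In EAE cells it went from 0.765 ± 0.063 to 0.567 ± 0.142 and with anti-Btla to 0.798 ± 0.150 (SD, n = 3). It was lower with control Ig than without stimulus, and higher with anti-Btla than with control Ig, in 3 of 3 numbers of both states. The exact permutation test over libraries (two-sided) gave p = 0.2 for each of these steps except anti-Btla in naive cells. There the ranges did not overlap and the exact permutation test gave p = 0.1, the smallest that 3 against 3 can give. With the ratio taken from estimated counts they overlapped (exact permutation p = 0.2). With IFNb present the ranges per length overlapped too (exact permutation p = 0.3). This test does not pair libraries by number, so its result includes the spread between numbers. Within numbers, the ratio changed with stimulation by -0.195 ± 0.00774 log2 in naive and -0.457 ± 0.239 log2 in EAE cells (SD, n = 3). With anti-Btla it changed by 0.316 ± 0.0635 and 0.504 ± 0.0884 log2. These paired changes were not tested.

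Zfp318, a zinc finger protein required for the expression of IgD from the long transcript, likewise had its lowest mean with control Ig in both states. It stood at 725 ± 52.1, 584 ± 39.4 and 881 ± 51.6 CPM in naive and at 720 ± 40.7, 541 ± 78.5 and 902 ± 112 CPM in EAE cells for the unstimulated, control Ig and anti-Btla arms. Its changes were -0.21 log2 (edgeR adjusted p = 0.000695) and -0.29 log2 (edgeR adjusted p = 0.000614) with stimulation. With anti-Btla they were 0.50 log2 (edgeR adjusted p = 2.76e-07) in naive and 0.66 log2 (edgeR adjusted p = 1.69e-06) in EAE cells.

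The remaining members mostly did not pass the test, in comparisons where many genes did. Of the 10 members 9 passed the filter on low counts in each comparison, all but Ighe. With stimulation 2 of 9 were called in naive cells (40.2% of all genes tested) and 1 of 9 in EAE cells (39.8%). With anti-Btla 1 of 9 was called in naive (32.8%) and 1 of 9 in EAE cells (30.1%), and with IFNb present 2 of 9 (29.5%) and 1 of 9 (31.0%). The median change of the 9 members was 0.02 log2 with stimulation in naive cells against -0.02 log2 over all genes, and -0.12 log2 with anti-Btla against 0.01 log2. In EAE cells these medians were -0.07 against -0.05 log2 and 0.15 against 0.04 log2.

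Ighg1, which encodes the IgG1 heavy chain, was the second member called with stimulation in naive cells. It rose from 1.03 ± 0.512 to 2.06 ± 0.701 CPM, a change of 1.18 ± 0.34 log2 (edgeR adjusted p = 0.0119), higher in 3 of 3 pairs and without overlap of the ranges, on 17 to 114 estimated counts per library. The call was lost without control Ig number 1 (1.07 log2, adjusted p = 0.0579), without control Ig number 2 (1.04 log2, adjusted p = 0.0503) or without unstimulated number 3 (1.05 log2, adjusted p = 0.0613), and without the replicate block (adjusted p = 0.0591, all edgeR). In EAE cells Ighg1 went from 6.14 ± 0.0917 to 7.28 ± 1.21 CPM (0.36 ± 0.23 log2, edgeR adjusted p = 0.233). With anti-Btla it was at 5.20 ± 2.19 CPM in EAE cells, which was not called (-0.50 log2, edgeR adjusted p = 0.157) except without anti-Btla number 1 (-0.91 log2, edgeR adjusted p = 0.0329).

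Ighm was called with anti-Btla in the presence of IFNb in naive cells, by 0.16 ± 0.056 log2 (4878 ± 461 to 5633 ± 456 CPM, edgeR adjusted p = 0.0442), higher in 3 of 3 pairs. This call was lost in 4 of 6 fits that left out 1 library (without number 1 or 3 of either arm, 0.12 to 0.17 log2, edgeR adjusted p = 0.0805 to 0.199) and without the replicate block (edgeR adjusted p = 0.309). Ighg2b, encoding IgG2b, stood at 10.6 ± 1.70 CPM with control Ig and 16.5 ± 4.12 CPM with anti-Btla in EAE cells, without overlap. That difference of 0.54 ± 0.22 log2 was not called (edgeR adjusted p = 0.0829), but was called by DESeq2 (adjusted p = 0.0325), with no filter (adjusted p = 0.0362) and without anti-Btla number 3 (0.78 log2, edgeR adjusted p = 0.0154).

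Igkc and Jchain were not called with stimulation or anti-Btla. The fitted changes of Igkc, the kappa constant gene, lay between -0.13 and 0.07 log2 over these 6 comparisons. Those of Jchain lay between -0.18 and 0.22 log2 (lowest edgeR adjusted p = 0.122), and those of Igha between -0.29 and 0.30 log2 (lowest edgeR adjusted p = 0.184). Ighg2c and Ighg3, which encode IgG2c and IgG3, were not called either. The change of Ighg2c was poorly bounded in naive cells, at 0.68 ± 0.59 log2 with anti-Btla, and ran from -0.48 to 1.31 log2 on leaving out 1 library.

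**Figure D3:**
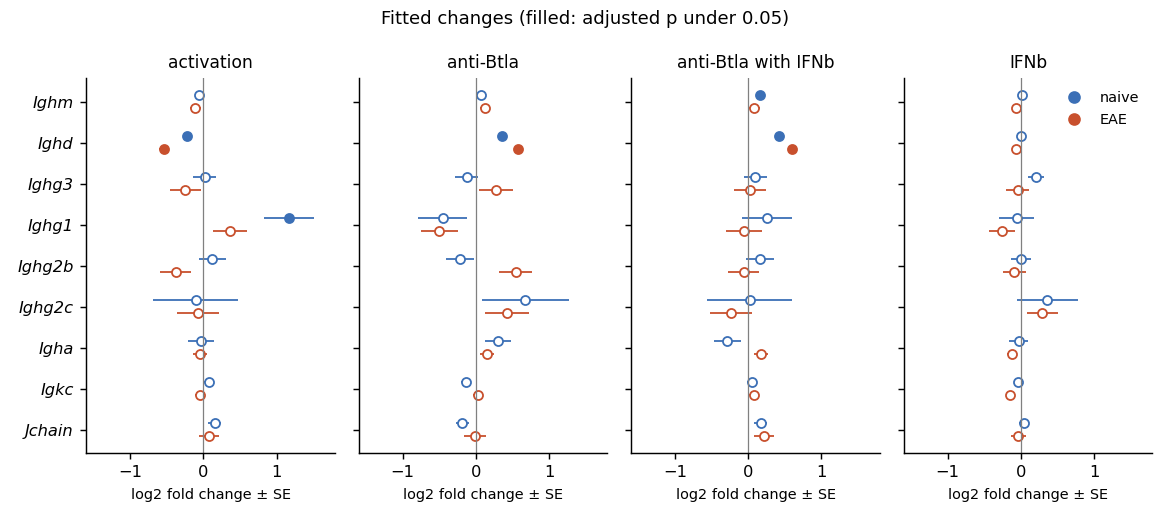
Fitted log2 fold changes ± SE of 9 genes (Ighe was not tested) with stimulation, with anti-Btla, with anti-Btla in the presence of IFNb, and with IFNb, in naive (blue) and EAE (orange) cells; filled points passed an edgeR adjusted p of 0.05. Ighd is filled in the first 3 panels in both states, below 0 with stimulation and above 0 with anti-Btla, and no point is filled for IFNb.

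The libraries labelled with IFNb were set against bead libraries without it, pooling control Ig and anti-Btla (6 against 6). None of 9 members was called in naive cells (0 at an unadjusted p below 0.05) or in EAE cells (1, Igkc, -0.15 ± 0.050 log2, edgeR adjusted p = 0.937), and 0.00% of all genes were called in either state by edgeR. DESeq2 called none of the members either. Of all genes, 402 and 802 had an unadjusted p below 0.05. The interferon-induced genes Isg15, Mx1 and Ifit3, chosen after their values had been seen as a check of the label, were not called in naive cells (0.24, 0.25 and 0.42 log2) or in EAE cells (-0.16, -0.15 and -0.25 log2), so the IFNb arms are named here by their label. Ighd stood at 2972 ± 519 CPM without and 2978 ± 570 CPM with IFNb in naive cells. The difference between the IFNb effects in EAE and naive cells called no member (0 of 9 at an unadjusted p below 0.05, and 0.00% of all genes).

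The next comparison set EAE against naive cells. Of the switched genes, Ighg1 was called in the unstimulated arm, Igha and Ighg2c had higher means in EAE libraries without a call, and Ighg2b had a lower one, while Ighg3, Ighm, Ighd, Igkc and Jchain overlapped between the states. In the unstimulated arm Ighg1 stood at 1.58, 0.564 and 0.945 CPM in naive numbers 1, 2 and 3 and at 6.05, 6.14 and 6.23 CPM in the EAE numbers. All EAE libraries were thus above all naive ones, and the EAE values lay close together. The difference was 2.62 ± 0.30 log2 (edgeR adjusted p = 0.0175), and Ighg1 was the only one of 9 members called, where 0.0492% of all genes were.

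This call was lost without naive number 3, whose Y-linked transcripts were near background (2.55 log2, edgeR adjusted p = 0.0636), and without EAE number 2 (2.64 log2, adjusted p = 0.0869) or EAE number 3 (2.59 log2, adjusted p = 0.0628). In the control Ig arm Ighg1 stood at 2.06 ± 0.701 CPM in naive and 7.28 ± 1.21 CPM in EAE cells (1.87 ± 0.27 log2, edgeR adjusted p = 0.148). There 0 of 9 members were called by edgeR (4 at an unadjusted p below 0.05, namely Ighg1, Igha, Ighg2b and Ighg2c) and 2 by DESeq2, where edgeR called 0.0188% of all genes. After summing the 5 arms of each number, a setting added after seeing the data, Ighg1 differed by 1.89 ± 0.21 log2 (edgeR adjusted p = 0.0229, 0.148% of all genes called).

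Igha, the constant gene of the mucosal antibody IgA, differed most in level but also varied most among EAE numbers. In the unstimulated arm it stood at 11.2, 6.04 and 6.49 CPM in naive and at 49.2, 27.1 and 83.5 CPM in EAE numbers 1, 2 and 3. Over all 5 arms, Igha ranged from 39.4 to 50.2 CPM in EAE number 1, from 18.7 to 30.4 CPM in number 2 and from 81.0 to 85.1 CPM in number 3, against 5.29 to 13.9 CPM in all naive libraries. The ranges of the 3 EAE numbers did not overlap, whereas within a number the 5 arms lay close together, and every EAE library was above every naive one. The difference of 2.80 ± 0.39 log2 missed the threshold (edgeR adjusted p = 0.0537) and passed it without EAE number 2 (3.13 log2, edgeR adjusted p = 0.0225), with no filter (adjusted p = 5.23e-10) and with DESeq2 (adjusted p = 0.000144). In the sums of the 5 arms of each number Igha was not called (2.69 ± 0.43 log2, edgeR adjusted p = 0.0732). Without naive number 3 the difference of Igha was 2.66 log2 (edgeR adjusted p = 0.153). In the control Ig arm Igha differed by 2.85 ± 0.45 log2 (edgeR adjusted p = 0.159), and without EAE number 2 it was called there (3.22 log2, edgeR adjusted p = 0.00498).

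Ighg2c, which this strain carries in place of Ighg2a, averaged 5.23 ± 2.37 CPM over naive and 12.7 ± 2.30 CPM over EAE numbers (each number the mean of its 5 arms, SD, n = 3 against 3). Means of Ighg1 were 1.66 ± 0.475 and 5.89 ± 0.642 CPM, and those of Igha 8.08 ± 2.28 and 51.34 ± 29.99 CPM. For all 3 genes every EAE number was above every naive number. Ighg2b went the other way, at 16.2 ± 0.906 CPM in naive and 13.4 ± 0.410 CPM in EAE numbers, again without overlap. In each case the exact two-sided permutation test gave p = 0.1, its smallest value for 3 against 3. Single libraries of Ighg2b overlapped between the states (10.8 to 20.6 CPM in naive and 7.78 to 20.2 CPM in EAE). Those of Ighg2c did so too (0.791 to 12.0 and 3.54 to 17.9 CPM). In the unstimulated arm Ighg2c differed by 1.29 ± 0.51 log2 (edgeR adjusted p = 0.607) and Ighg2b by -0.11 ± 0.12 log2 (edgeR adjusted p = 0.901).

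Jchain did not follow Igha in mean. It averaged 29.2 ± 0.489 CPM over naive and 34.4 ± 12.6 CPM over EAE numbers (exact permutation p = 0.6). Within EAE it had the order of Igha, with a mean over 5 arms of 37.5 CPM in number 1, 20.5 CPM in number 2 (25.9 CPM at most) and 45.1 CPM in number 3 (41.5 CPM at least), against 25.2 to 35.0 CPM in all naive libraries. EAE number 2 thus lay below or at the low end of the naive range and number 3 above it. The plasma cell markers, a list of 18 genes, summed to 1878 to 2101 CPM in EAE and 1898 to 2080 CPM in naive libraries and overlapped. Over all arms, the spread of this sum among naive libraries exceeded the highest level of Igha (85.1 CPM). These pooled ranges therefore cannot show a shift of that size. In the unstimulated arm the sum was 2029 to 2073 CPM in naive and 1953 to 2040 CPM in EAE libraries, with overlap. The part of plasma cells in Igha was not tested. The 6 B-1 cell markers summed to 85.7 to 95.9 CPM in naive and 61.9 to 70.2 CPM in EAE libraries of the unstimulated arm, without overlap, and to 79.5 to 97.1 and 61.9 to 90.0 CPM over all arms, with overlap. Of these 6 genes 0 were called between the states in the unstimulated arm (median -0.48 log2), and their part in the differences of the constant genes was not tested.

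**Figure D4:**
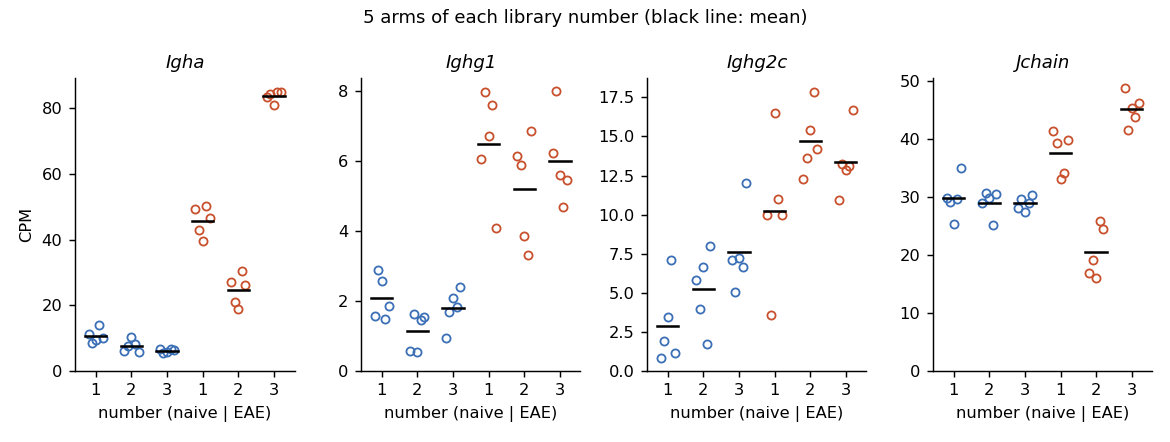
CPM of Igha, Ighg1, Ighg2c and Jchain in the 5 arms (points) of each library number, naive in blue and EAE in orange, with a black line at the mean. Igha separates the 3 EAE numbers at 18.7 to 30.4, 39.4 to 50.2 and 81.0 to 85.1 CPM, Ighg1 is higher in every EAE number, and Jchain of EAE number 2 is the lowest.

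As a share of all heavy chain constant transcripts per length, Ighm and Ighd together left little room for switched genes. The share of the 6 switched genes (IgG, IgA and IgE) was 0.387 to 0.806% in naive libraries (median 0.581%) and 1.03 to 3.02% in EAE libraries (median 1.47%), without overlap. By number, the switched share was 0.584 ± 0.079% in naive and 1.77 ± 0.737% in EAE cells, a difference of 1.19 percentage points (exact permutation p = 0.1, the smallest possible with 3 against 3). Without EAE number 3, which had the highest Igha, the difference was 0.776 percentage points. Igha made up 0.0489 to 0.192% of heavy chain transcripts in naive and 0.405 to 2.06% in EAE libraries.

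The 8 heavy chain genes have a secreted and a membrane transcript each. Shares are given as a percentage of the estimated counts of the gene. The secreted transcript of Ighm held 40.3 to 51.5% in naive (median 45.2%) and 42.6 to 55.3% in EAE libraries (median 49.4%). Ighd was mostly membrane form, with 16.1 to 19.8% secreted in naive and 14.5 to 20.1% in EAE libraries. Counts give more weight to the longer membrane transcripts (1806 against 802 bases in Ighd and 2540 against 1100 in Igha). Per length, the median secreted share in naive and EAE libraries was 38.1 and 37.8% for Ighd. It was 67.2 and 96.2% for Igha and 58.0 and 77.1% for Ighg1, so shares of counts should not be compared between genes. Salmon, the counting program, splits reads between forms by a model, and the forms of Ighd share 708 bases, while 94 bases are unique to the secreted and 1098 to the membrane transcript.

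The secreted share of Igha differed between the states. It was 18.1 to 69.8% in naive libraries (median 41.8%) and 76.3 to 94.5% in EAE libraries (median 90.0%), without overlap. By number it was 56.2, 31.8 and 33.5% in naive and 89.5, 83.3 and 94.0% in EAE cells, a mean of 40.5 ± 13.6% against 88.9 ± 5.42% (exact permutation p = 0.1, the smallest possible). The secreted form of Igha stood at 1.09 to 9.71 CPM in naive and 16.2 to 80.3 CPM in EAE libraries, while the membrane form stood at 3.11 to 6.03 and 2.49 to 6.41 CPM. By number, the secreted form of Igha averaged 3.56 ± 2.22 CPM in naive and 46.7 ± 29.6 CPM in EAE cells without overlap, and the membrane form 4.52 ± 0.437 and 4.63 ± 0.459 CPM with overlap (exact permutation p = 0.1 and 0.7). The difference in Igha between the states, not called for the gene in the unstimulated arm, thus lay in reads that Salmon assigned to the secreted transcript. The forms of Igha share 972 bases, with 128 unique to the secreted and 1568 to the membrane transcript.

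The secreted share was also higher in every EAE than in every naive number for Ighg1 (30.8 ± 8.48% in naive against 56.2 ± 8.05% in EAE, number means). So it was for Ighg2c (64.6 ± 11.4% against 80.6 ± 2.98%), Ighg3 (63.1 ± 2.05% against 69.4 ± 2.86%) and Ighm (45.2 ± 1.66% against 48.6 ± 2.10%). Each had an exact permutation p of 0.1. The secreted form of Ighm was not itself higher in EAE (2390 ± 230 CPM in naive against 2214 ± 139 CPM in EAE numbers, with overlap). Its membrane form was lower in EAE, without overlap (2901 ± 221 against 2353 ± 272 CPM). Ighg2b (76.9 ± 5.14% against 75.7 ± 2.82%) and Ighd (17.8 ± 0.115% against 17.5 ± 0.977%) overlapped. The share of Ighg1 in naive libraries rested on few reads and ran from 0 to 73.0%. The edgeR test of transcript use between unstimulated EAE and naive libraries, added after seeing the data, called 0 of 16 member transcripts (1 at an unadjusted p below 0.05, the membrane transcript of Igha) and 0.203% of all transcripts.

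No shift of these shares with stimulation, anti-Btla or IFNb was called. Of 16 member transcripts tested, 0 were called by edgeR with stimulation or anti-Btla or with IFNb (0 at an unadjusted p below 0.05 in each of the 6 comparisons). Of all transcripts, edgeR called 0.466, 0.379 and 0.352% with stimulation, anti-Btla and IFNb in naive cells and 0.302, 0.489 and 0.466% in EAE cells. With limma 0 were called as well (2 at an unadjusted p below 0.05 in each comparison of naive cells and 0 in EAE cells, lowest adjusted p = 0.171), where in the same order 4.49, 2.65 and 0.178% of all transcripts were called in naive and 4.70, 2.02 and 0.0894% in EAE cells. On simulated 2-fold changes for the anti-Btla comparison in naive cells, edgeR recovered 5% and limma 36% of changed transcripts. Of the calls made there, 50% (edgeR) and 8.86% (limma) were false. The simulation gave all transcripts the same spread and no effect of library number, so these rates need not hold for the data. A missing call does not show that the forms were used alike. The membrane share of Ighd was 81.2 ± 1.06, 83.2 ± 0.569 and 82.0 ± 0.452% in naive unstimulated, control Ig and anti-Btla libraries (SD, n = 3), with the control Ig range (82.9 to 83.9%) above both others. In EAE cells it was 82.9 ± 2.02, 83.5 ± 1.71 and 81.7 ± 1.58%, with overlap. The second Jchain transcript, Jchain-202, held 4.36 to 12.3% of the gene in all libraries.

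**Figure D5:**
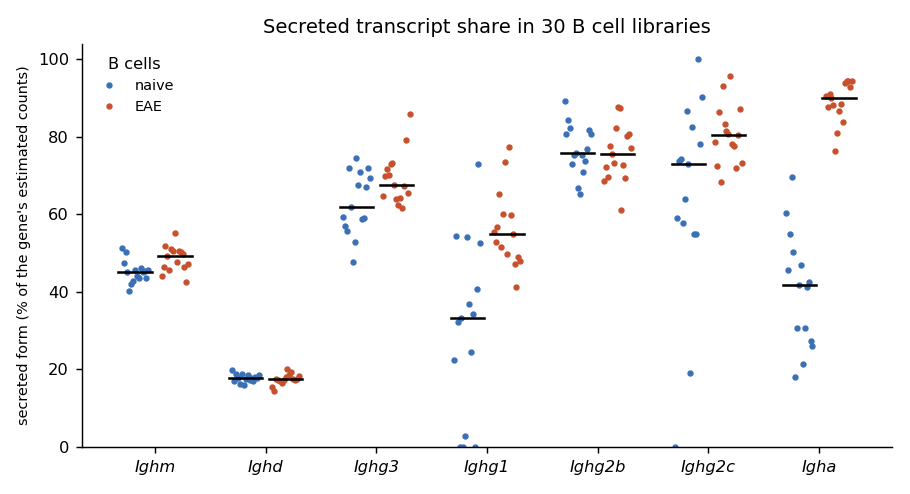
Secreted transcript as a percentage of the estimated counts of each heavy chain gene in 15 naive (blue) and 15 EAE (orange) B cell libraries, 1 point per library, with a black line at the median. Igha does not overlap between the states (18.1 to 69.8% against 76.3 to 94.5%), Ighd lies near 18% in both, and naive Ighg1 and Ighg2c scatter widely on few reads.

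Genes around the constant genes were described from 6 lists, with all genes tested as background. Of 16620 genes tested in naive cells 3779 rose and 2904 fell with stimulation, and 2172 rose and 3285 fell with anti-Btla. Of 17007 in EAE cells 3576 rose and 3190 fell with stimulation, and 2315 rose and 2809 fell with anti-Btla. Of the 4 lambda constant genes, Iglc3 rose with stimulation in naive (0.53 log2, edgeR adjusted p = 6.72e-06) and EAE cells (0.44 log2, adjusted p = 0.00219), Iglc2 rose in naive cells (0.28 log2, adjusted p = 0.000795), and Iglc4 fell in both. With anti-Btla only Iglc4 was called, higher by 0.81 log2 in naive (adjusted p = 0.00453) and 0.85 log2 in EAE cells (adjusted p = 0.00356). Iglc1 was not called in any of these comparisons (0.02 to 0.08 log2).

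Cd79a and Cd79b, the signaling chains of the membrane receptor, both fell with stimulation. Cd79b went from 892 ± 92.6 to 667 ± 50.5 CPM in naive cells (edgeR adjusted p = 0.00278) and was 869 ± 61.8 CPM with anti-Btla (0.29 log2, adjusted p = 0.00576). Cd79a was called with anti-Btla in EAE cells (0.45 log2, edgeR adjusted p = 0.00284) but not in naive cells (0.19 log2, adjusted p = 0.201). Like Ighd, both genes had a lower mean with control Ig than in the unstimulated and anti-Btla arms in both states.

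Of the 23 class switch genes 11 rose and 2 fell with stimulation in naive cells and 12 rose and 0 fell in EAE cells, among them Xrcc5 and Apex1. With anti-Btla 1 rose and 8 fell in naive and 0 rose and 10 fell in EAE cells, among them Batf and Apex1. The median change of this list was 0.14 (naive) and 0.19 (EAE) log2 with stimulation, against -0.02 and -0.05 log2 over all genes, and -0.11 and -0.18 log2 with anti-Btla, against 0.01 and 0.04 log2.

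Of the 12 genes of heavy chain mRNA processing 5 rose and 2 fell with stimulation in both states, among them Snrpa, Elavl1 and Hnrnpf, which rose. With anti-Btla 2 rose, Zfp318 among them, and 6 fell in naive cells, and 1 rose and 5 fell in EAE cells. Of 17 plasma cell markers tested 8 rose and 3 fell with stimulation in naive and 10 rose and 3 fell in EAE cells, while 3 rose and 6 fell with anti-Btla in each state. Xbp1, a factor of antibody-secreting cells, rose by 0.64 and 0.69 log2 with stimulation and changed by -0.56 and -0.51 log2 with anti-Btla (edgeR adjusted p at most 0.000387). Of 17 immunoglobulin transcription factors 3 rose and 7 fell with stimulation in each state, Ets1 and Pax5 among those that fell. With anti-Btla 5 rose and 2 fell in naive and 7 rose and 2 fell in EAE cells.

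Between unstimulated EAE and naive cells, Prdm1, which encodes the plasma cell regulator Blimp-1, was the one gene called from these 6 lists. It was lower in EAE cells, at 19.1 ± 2.50 against 37.7 ± 0.540 CPM (-0.95 log2, edgeR adjusted p = 0.0461). In the control Ig arm 0 genes of the lists were called.

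The genes most like each member were sought among 13196 genes (minimum mean 1 CPM) by Pearson's r of log2(CPM + 1), given as a description, since group means share libraries and depth. Over the 10 group means, Ighd was most like Ctns (r = 0.985), Accs (r = 0.984) and the variable gene Ighv1-9 (r = 0.982), and Ighm most like Ighv2-9-1, Etv5 and Fnbp4 (r = 0.985, 0.985 and 0.985). Igha and Ighg1 were both most like Ddx3y (r = 0.991 and 0.959), a Y-linked gene whose group means differ between the states through naive number 3. In deviations from the group means over 30 libraries, Igha was most like the variable genes Igkv8-30 and Ighv8-5 and the lambda constant gene Iglc1 (r = 0.849, 0.847 and 0.838). Jchain was most like Cd38 (r = 0.889) by the same measure.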

How the data were processed

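RNA of 30 B cell and 30 CD4+ T cell libraries was quantified by the authors with Salmon against GRCm38, and the deposited tables give, for each transcript, an estimated count (NumReads) and TPM (transcript abundance, corrected by the authors for effective length). Neither the library kit nor the strand setting is given in the sources. Transcripts were assigned to genes by GENCODE M21, and 569 of 116546 transcripts in the B cell tables (0.158 to 0.210% of counts) had no gene and were left out. Estimated counts were summed per gene, rounded for tests and scaled to CPM. T cell samples with repeat runs were summed to 1 library. Replicate pairs of B cells differed by more than counting noise (chi-square per degree of freedom 5.44 to 49.8 over 30 pairs).

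Genes passing filterByExpr (minimum count 10) were fitted with edgeR 4.0.16 (R 4.3.3, TMM scaling, quasi-likelihood F-test), with the library number as a block within each state and without it between states, and p-values were adjusted by Benjamini-Hochberg over all genes and called below 0.05. Transcript use was tested with diffSpliceDGE. Alternatives were DESeq2 1.42.0 and its size factors, scaling without immunoglobulin genes, no filter, the other use of the block, limma 3.58.1 diffSplice, a transcript minimum count of 50 and leaving out each library, the last for the constant genes and J chain alone. On simulated data, edgeR recovered 13% of 1.5-fold and 87% of 2-fold changes for anti-Btla in naive cells (16379 genes). Those data had the same spread for all genes and no effect of library number. Single values were compared by exact two-sided permutation tests over libraries.

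All 10 genes were named. Of each related list, up to 3 genes with the smallest p per comparison were eligible, together with Zfp318, Prdm1, Xbp1, Cd79a, Cd79b and Iglc1 to Iglc3, and some list genes are not reported here. Members, lists and rules were chosen with earlier results of these data known. The number of libraries limits precision, and depth (6.69 to 62.1 M counts, M being 1000000) limits Ighe and the forms of Ighg1. The forms of Ighg2c also scattered widely in naive libraries (23.2 to 442 counts of the gene), and the cause was not tested.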

Additional observations from a re-analysis of the deposited data

Results flagged for a closer look

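The CD4+ T cell libraries, which entered no comparison, held transcripts of 8 of the 10 genes at a median above 0.228 CPM, the level of 3 counts at the median T cell depth. Over the 30 T cell libraries the median was 291.4 CPM for Ighm, 36.72 CPM for Igkc and 9.655 CPM for Ighd. Jchain had a median of 3.324 CPM, Igha 2.855 CPM, Ighg2c 1.842 CPM, Ighg2b 1.206 CPM and Ighg3 0.2503 CPM. As a percentage of the B cell median, these were 5.71% for Ighm, 2.75% for Igkc, 0.305% for Ighd, 11.2% for Jchain, 17.5% for Igha and 20.5% for Ighg2c, beside 0.864% for the B cell marker Ms4a1. In T cells of naive mice Igha ranged from 0.186 to 1.11 CPM unstimulated, and in those of EAE mice from 21.4 to 47.5 CPM. The part of B cell or plasma cell RNA in these values was not tested. Groups of 3 libraries were too small for a test of single outlying libraries.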

How the results depend on the processing

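No change that was called, in the edgeR test as reported or under an alternative, turned its direction. Changes that were called in no setting could turn, as Ighg2c with anti-Btla in naive cells did. The number of constant genes called with stimulation in naive cells was 2, 1 with no replicate block and 1 to 3 on leaving out 1 library. With anti-Btla and IFNb in naive cells it was 2, then 1 and 1 to 2. With anti-Btla in EAE cells it was 1, against 2 with no filter, 2 with DESeq2 and 1 to 2 on leaving out 1 library. Between unstimulated EAE and naive cells it was 1, against 3 with no filter, 2 with DESeq2, 2 with a replicate block and 0 to 1 on leaving out 1 library. In the control Ig arm it was 0, against 2 with no filter, 2 with DESeq2, 1 with a replicate block, 1 for sums of 5 arms (added after seeing the data) and 0 to 1 on leaving out 1 library. For the difference of activation effects it was 0, and 1 with DESeq2. The cause was not tested.

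Same-numbered libraries deviated together (median r 0.488 over 30 pairs in naive and 0.546 in EAE cells, with 25 and 28 pairs over 0.1), and 15 of 15 naive and 14 of 15 EAE libraries were most like one of their own number, a hint from the data only. With no replicate block the genes called in EAE cells went from 6766 to 4403 with stimulation, from 5124 to 2775 with anti-Btla and from 5268 to 2794 with IFNb present. With a replicate block Igha was called between unstimulated EAE and naive cells (2.70 log2, edgeR adjusted p = 0.0212), although nothing in the labels ties a number in naive to the same number in EAE cells, and in sums of the 5 arms of each number it was not (edgeR adjusted p = 0.0732).

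All genes called between unstimulated EAE and naive cells numbered 8, against 209 with no filter, 177 with DESeq2 and 22 with a replicate block, and in the control Ig arm 3, against 28, 67 and 6. For IFNb they numbered 0, against 10 (naive) and 7 (EAE) with no filter and 3 and 1 with DESeq2. The difference of activation effects called 15, against 37 with DESeq2 and 0 with no replicate block, that of anti-Btla effects 0, against 8 and 8 with no filter and DESeq2, and that of IFNb effects 0, against 7 and 4. For transcript use with stimulation, anti-Btla and IFNb, limma called 2119, 1250 and 84 in naive cells against 220, 179 and 166, and 2260, 969 and 43 in EAE cells against 145, 235 and 224. A minimum count of 50 gave 142, 114 and 70 in naive cells, and in EAE cells 87 with stimulation and 102 with IFNb. With no replicate block 269 (anti-Btla) and 262 (IFNb) were called in naive cells. Of the numbers of members called and the state differences, 237 values kept their call or size and 24 moved. Of the values for single members and the numbers of all genes or transcripts called, 368 kept theirs, 53 moved, 18 gained and 12 lost a call.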
